A study of Homo sapiens with 10 samples.

Results

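Integrins and laminins are the receptor and ligand chains through which epithelial cells, human pluripotent stem cells among them, hold on to a basement membrane. The group was taken from the protein-coding rows of the count table whose gene symbol marks an integrin alpha, integrin beta, laminin alpha, laminin beta or laminin gamma gene, and comprised 38 of 55841 gene identifiers. Of these, 18 encode integrin alpha chains, 8 integrin beta chains, 5 laminin alpha, 4 laminin beta and 2 laminin gamma chains. The remaining member, ITGB3BP, fits the spelling of the rule but encodes a centromere protein and not an integrin chain, and is described apart from the others. The rule used names only, no measured values.

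RNA was sequenced in bulk from a human embryonic stem cell line labelled HES9, grown in mTESR1 medium on matrigel, in 5 libraries of the general population and 5 libraries of HHH cells. The general population was not sorted, so it also contained cells of the HHH type. HHH cells were sorted for the highest expression of 3 surface antigens, EPCAM, GCTM2 and CD9. Sorting itself and the antigen phenotype cannot be told apart, because no library came from cells sorted without this selection. Batch 1 held 2 libraries of each population and batch 2 held 3 of each. The study's text names the line of its RNA sequencing WA09, and the design text of the deposit mentions a protein kinase C inhibitor that no library label carries. Neither point is resolved here. No label says whether the libraries came from separate cultures, so p-values measure only the spread between these libraries, which may be technical.

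A laminin molecule is a cross of an alpha, a beta and a gamma chain, which assemble inside the cell before secretion into the basement membrane. An integrin is a pair of an alpha and a beta chain in the plasma membrane, and the pair decides which matrix protein it binds. Human pluripotent stem cells are known to attach to laminins containing the alpha 5 chain mainly through the pair encoded by ITGA6 and ITGB1, and to vitronectin through the pair encoded by ITGAV and ITGB5. Matrigel is itself a laminin-rich extract of mouse tumour matrix.

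Laminin beta chain transcripts were lower in HHH cells than in the general population, together with the laminin alpha 5 transcript and ITGB8. Of the 31 members that had enough counts to test, 5 passed edgeR's quasi-likelihood test with batch as a term (Benjamini-Hochberg adjusted p under 0.05 over all 23552 tested genes), and all 5 were lower in HHH: LAMA5, LAMB1, LAMB2, LAMB3 and ITGB8. This was 16.1% of the tested members, against 3.89% of all tested genes called lower and 5.83% called in either direction. The laminins made up most of the calls, with 4 of 10 tested laminin chains (40.0%) against 1 of 20 tested integrin chains (5.0%). At a fold change over 1.5 as well, 2 members were called, LAMA5 and LAMB3, where 2.34% of all tested genes were called lower and 2.98% in either direction. The median log2 fold change was -0.26 over the tested laminin chains, -0.02 over the tested integrin chains and 0.02 over all tested genes. In bulk RNA, fewer cells that express a gene and less of its RNA per cell cannot be told apart.

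**Figure D1:**
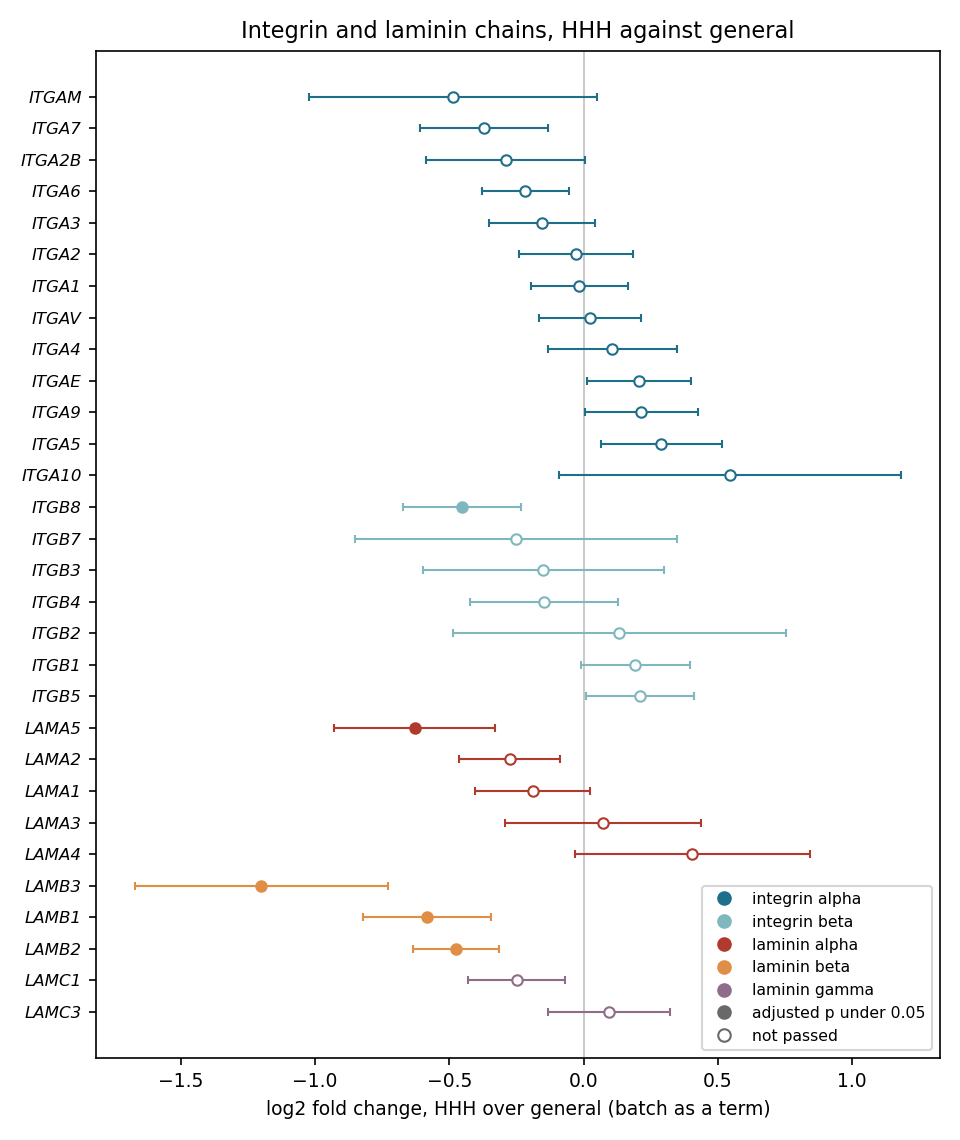
Log2 fold change (HHH over general, batch as a term) of the 30 tested integrin and laminin chains on the horizontal axis, grouped and coloured by chain family, with bars for the 95% interval and filled points for an adjusted p under 0.05. The 5 filled points all lie left of 0, from -1.20 for LAMB3 to -0.45 for ITGB8.

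LAMA5 encodes the alpha chain of the laminins most used by pluripotent stem cells (ENSG00000130702, chr20:62307955-62367312, minus strand, coordinates here and below from GENCODE 44 on GRCh38). LAMB1 (ENSG00000091136, chr7:107923799-108003213, minus strand) and LAMB2 (ENSG00000172037, chr3:49121114-49133118, minus strand) encode the alternative beta chains that join it. The bases just upstream of these 3 genes are shown. They are those of the 5 members past the test that had 1 start in the promoter table and at least 150 upstream bases outside annotated exons. LAMB3 and ITGB8, also lower in HHH, did not meet this rule and were not searched. The bases were taken from the RefSeq promoter table (GRCh38.p14), each read 5′ to 3′ on the strand of the gene. The stretch is 250 bases for LAMA5 (chr20:62367313-62367562), 198 for LAMB1 (chr7:108003214-108003411) and 182 for LAMB2 (chr3:49133119-49133300), since bases within annotated exons were left out. Capitals mark the letters GGGCGG (the GC box) or CAGGTG (an E-box that ZEB and SNAIL repressors can bind), on either strand.
LAMA5: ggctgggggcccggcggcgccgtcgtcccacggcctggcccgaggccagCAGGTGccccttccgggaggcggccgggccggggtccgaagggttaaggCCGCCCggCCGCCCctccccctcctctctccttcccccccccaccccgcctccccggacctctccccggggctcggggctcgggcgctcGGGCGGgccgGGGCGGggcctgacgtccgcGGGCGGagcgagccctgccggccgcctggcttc
LAMB1: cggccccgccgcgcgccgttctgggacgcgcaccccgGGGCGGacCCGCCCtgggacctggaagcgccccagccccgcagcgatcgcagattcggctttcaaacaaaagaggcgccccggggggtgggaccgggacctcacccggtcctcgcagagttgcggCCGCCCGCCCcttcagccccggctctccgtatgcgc
LAMB2: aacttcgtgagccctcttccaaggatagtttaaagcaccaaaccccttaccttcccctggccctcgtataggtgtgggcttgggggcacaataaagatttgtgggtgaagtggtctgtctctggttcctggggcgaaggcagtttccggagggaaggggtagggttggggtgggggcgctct
The LAMA5 stretch is 82.8% G and C and holds 5 GC boxes and 1 CAGGTG. The LAMB1 stretch is 75.3% G and C and holds 4 GC boxes, the last of which overlaps the one before it. The LAMB2 stretch is 56.6% G and C and holds neither, so that the 3 stretches had no searched motif in common. Neither CCAAT nor TATAAA, searched in the same way, was in any of them. Over 35114 promoters of the table, 250 upstream bases held GGGCGG in 42.6%, CAGGTG in 17.5%, CCAAT in 32.0% and TATAAA in 10.7% on either strand, with a median of 58.0% G and C. In the first 198 and 182 of these bases, the shares with GGGCGG were 34.5% and 31.6%. These are matches of letters, and no measurement of binding was made.

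LAMB2 gave the smallest p-value of the group. In batch 1 its level was 79.2 and 78.6 CPM (a count divided by the TMM-scaled size of its library) in the general libraries, and 53.1 and 65.4 CPM in the HHH libraries. The batch 2 levels were 83.9, 88.6 and 87.1 CPM in the general libraries and 61.4, 65.3 and 55.1 CPM in HHH. All 5 HHH libraries lay below all 5 general libraries. Over 5 libraries each, the mean and SD were 83.5 ± 4.53 CPM in general and 60.1 ± 5.73 CPM in HHH. On the log2 scale the change was -0.47 with a standard error of 0.08 (adjusted p = 0.00153 in edgeR).

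LAMB1 was lower in HHH on top of a large difference between the batches. Its level in batch 1 was 48.2 and 38.0 CPM in general and 23.0 and 35.3 CPM in HHH. Batch 2 gave 87.2, 87.7 and 91.1 CPM in general and 62.7, 63.8 and 49.7 CPM in HHH. Within each batch every HHH library lay below every general library, while across batches the populations overlapped. The change was -0.58 with a standard error of 0.11 in log2 (adjusted p = 0.00582 in edgeR), a general level 1.498 times that in HHH and so just short of 1.5-fold.

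LAMB3 encodes the beta chain of the laminin that anchors epidermis, where LAMA3 encodes the alpha chain. It had the largest fold change of the members past the test and the lowest level, with 22 to 49 counts in the general libraries and 9 to 18 counts in HHH. The batch 1 values were 0.751 and 0.654 CPM in general and 0.386 and 0.320 CPM in HHH. The batch 2 values were 0.382, 0.597 and 0.517 CPM in general and 0.189, 0.225 and 0.159 CPM in HHH. The populations did not overlap within either batch, and the change was -1.20 with a standard error of 0.22 in log2 (adjusted p = 0.00446 in edgeR). LAMA3 did not pass, with a log2 fold change of 0.07 (95% interval -0.29 to 0.44). The detection floor, taken as 3 counts, stood for 0.0460 to 0.0687 CPM and covers counting error only.

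LAMA5 differed between the populations mainly in batch 2. In batch 1 it stood at 70.2 and 74.4 CPM in general and at 56.2 and 74.4 CPM in HHH, and the populations overlapped. The batch 2 libraries stood at 146, 136 and 169.6 CPM in general and at 77.9, 87.3 and 69.5 CPM in HHH, without overlap. Over both batches the change was -0.63 with a standard error of 0.14 in log2 (adjusted p = 0.0158 in edgeR). In batch 1 alone it was -0.15 ± 0.14 (adjusted p = 0.716) and in batch 2 alone -0.95 ± 0.11 (adjusted p = 0.000103). The difference between the batches, tested as an interaction, was -0.80 ± 0.19 with an adjusted p of 0.0693. After correction of every library for GC content this interaction was -0.29 ± 0.14 (adjusted p = 0.407), and the longest annotated transcript of LAMA5 is 66.4% G and C. The change over both batches was then -0.57 in log2 (edgeR adjusted p = 0.000520). Without HHH batch 2 replicate 1, the adjusted p of the change over both batches was 0.0604.

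ITGB8 was the only integrin chain past the test. It encodes a beta chain that pairs with ITGAV and binds the latent form of TGF-beta (ENSG00000105855, chr7:20330702-20415754, plus strand). Its levels in batch 1 were 9.52 and 8.67 CPM in general and 7.18 and 8.08 CPM in HHH. In batch 2 they were 9.57, 9.94 and 8.49 CPM in general and 6.06, 6.95 and 5.64 CPM in HHH. All 5 HHH libraries lay below all 5 general libraries, and the change was -0.45 with a standard error of 0.10 in log2 (adjusted p = 0.0167 in edgeR). The adjusted p was 0.0628 without HHH batch 2 replicate 1, 0.0546 without general batch 2 replicate 1 and 0.0509 without general batch 2 replicate 2.

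**Figure D2:**
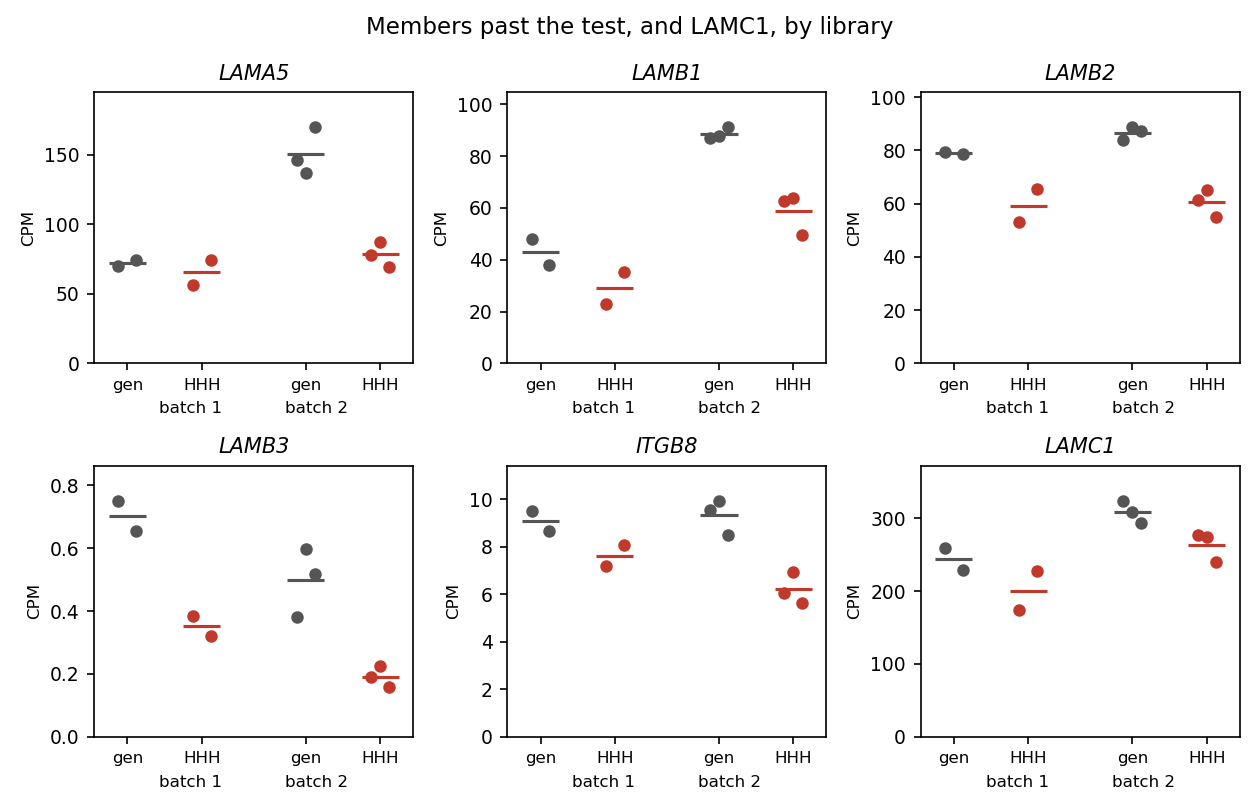
CPM (vertical axes, from 0) in each library for the 5 members past the test and for LAMC1, with general libraries in grey and HHH in red, batch 1 left and batch 2 right, and a bar at each mean. LAMB1, LAMB2, LAMB3, ITGB8 and LAMC1 had every HHH library below every general library of the same batch, and LAMA5 in batch 2 alone.

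The other laminin chains did not pass in edgeR. LAMC1, the gamma chain shared by most laminins, was at 259.7 and 229 CPM in the general libraries of batch 1 and at 175 and 227 CPM in HHH. Batch 2 gave 324, 308 and 294 CPM in general and 277, 275 and 239 CPM in HHH. The HHH libraries lay below the general ones within each batch, but the change of -0.25 in log2 (standard error 0.09) had an adjusted p of 0.107 in edgeR. With each library left out in turn, this adjusted p ran from 0.0406 (without HHH batch 1 replicate 3) to 0.256 (without HHH batch 1 replicate 2). LAMC1 passed in 1 of these 10 fits, in which 2347 genes passed in all against 1373 in the main fit. LAMA1, the alpha chain of the earliest embryonic basement membranes, was at 122 and 98.3 CPM in general and 93.3 and 118 CPM in HHH in batch 1. The batch 2 values were 196, 208 and 180.1 CPM in general and 174, 174 and 136 CPM in HHH, which did not overlap. Its log2 fold change was -0.19 (95% interval -0.40 to 0.03). LAMA2, the alpha chain of muscle laminin, was at 4.32 and 3.79 CPM in general and 3.54 and 3.55 CPM in HHH in batch 1. In batch 2 it was at 13.9, 13.3 and 13.0 CPM in general and 11.1, 11.5 and 9.53 CPM in HHH, so that HHH lay below general within each batch. Its log2 fold change of -0.28 over both batches had an adjusted p of 0.0873 in edgeR and 0.0437 in DESeq2. DESeq2 called 1983 genes in all, against 1373 in edgeR. LAMA4, an alpha chain of vessel walls, had 0.40 (95% interval -0.03 to 0.84, adjusted p = 0.277), and LAMC3 had 0.09 (-0.13 to 0.32).

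Of the integrin alpha chains, none of 13 tested passed in edgeR. An unadjusted p under 0.05 was reached by 5 of them, and no share of all tested genes was taken at that threshold. DESeq2, which called 1983 genes in all against 1373 in edgeR, called 1 of them, ITGA7. ITGA6, the alpha chain of the main laminin receptor, was at 373 and 315 CPM in the general libraries of batch 1 and at 277 and 272 CPM in HHH. The batch 2 levels were 338, 329.6 and 302 CPM in general and 298, 298 and 282 CPM in HHH. All HHH libraries lay below all general libraries, yet the log2 fold change of -0.22 (95% interval -0.38 to -0.06) had an adjusted p of 0.113. ITGA5, the alpha chain of the fibronectin receptor, ran the other way. It was at 28.8 and 28.9 CPM in general and 36.4 and 38.4 CPM in HHH in batch 1, and at 25.8, 26.7 and 21.4 CPM in general and 32.4, 32.6 and 22.0 CPM in HHH in batch 2. HHH batch 2 replicate 3 was the single HHH library within the general range. The change was 0.29 in log2 (standard error 0.11) with an adjusted p of 0.131, which was 0.0076 without that library and 0.0482 after removal of the GC trend. That was the 1 fit of 10 with a library left out in which ITGA5 passed. The highest adjusted p of these fits was 0.292, without general batch 2 replicate 3. ITGAV, which pairs with several beta chains to bind vitronectin and other ligands, was at 123 and 114 CPM in general and 102 and 101 CPM in HHH in batch 1. In batch 2 it was at 113, 102 and 93.0 CPM in general and 119.7, 109 and 121 CPM in HHH. HHH was thus the lower population in batch 1 and had the higher mean in batch 2, with a log2 fold change over both of 0.02 (95% interval -0.17 to 0.21).

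ITGA7, a laminin receptor chain of muscle, was at 21.9 and 26.7 CPM in general and 19.5 and 20.8 CPM in HHH in batch 1. In batch 2 it was at 31.6, 22.9 and 36.8 CPM in general and 22.4, 23.5 and 21.6 CPM in HHH, where general replicate 2 lay within the HHH range. Its log2 fold change of -0.37 had an adjusted p of 0.0664 in edgeR and 0.0276 in DESeq2. ITGA3, another laminin receptor chain, had -0.15. The collagen receptor chains ITGA1, ITGA2 and ITGA10 had -0.02, -0.03 and 0.55, the last at 7 to 19 counts. ITGA4 and ITGA9, which bind fibronectin, tenascin or VCAM1, had 0.11 and 0.22, and 26.4% of the exonic bases of ITGA4 are shared with CERKL. ITGAE, an E-cadherin receptor chain, had 0.21. ITGA2B and ITGAM, chains of platelet and myeloid integrins, had -0.29 and -0.49, the latter at 6 to 31 counts.

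Among the beta chains, ITGB1 and ITGB5 were the abundant ones. ITGB1, the partner of most alpha chains, was at 376 and 372 CPM in the general libraries of batch 1 and at 326 and 371 CPM in HHH. In batch 2 it was at 346, 341 and 300.3 CPM in general and at 431, 427 and 435 CPM in HHH. HHH lay below general in batch 1 and above it in batch 2, each time without overlap. In batch 1 the nearest libraries were close, at 371.3 CPM in HHH and 372.3 CPM in general. In edgeR the change in log2, each with its standard error, was 0.19 ± 0.10 (adjusted p = 0.265) over both batches, -0.11 ± 0.12 (adjusted p = 0.759) in batch 1 alone and 0.38 ± 0.09 (adjusted p = 0.0155) in batch 2 alone. The interaction was 0.49 ± 0.14 with an adjusted p of 0.111, and 0.32 ± 0.13 after removal of the GC trend (edgeR adjusted p = 0.341). ITGB5, the partner of ITGAV in the vitronectin receptor, was at 153 and 206 CPM in general and 185 and 230.5 CPM in HHH in batch 1. In batch 2 it was at 175, 168 and 159.5 CPM in general and 197, 211 and 173 CPM in HHH. The populations overlapped in both batches, with a log2 fold change of 0.21 (95% interval 0.01 to 0.41, adjusted p = 0.218). ITGB4, the beta chain of hemidesmosomes, had -0.15, ITGB3 of the platelet receptor -0.15, and the leukocyte chains ITGB2 and ITGB7 0.13 and -0.25, the last 3 at 9 to 61 counts a library. ITGB3 and ITGB7 share 33.2% and 42.3% of their exonic bases with another gene. ITGB3BP had 0.14 (adjusted p = 0.418).

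**Figure D3:**
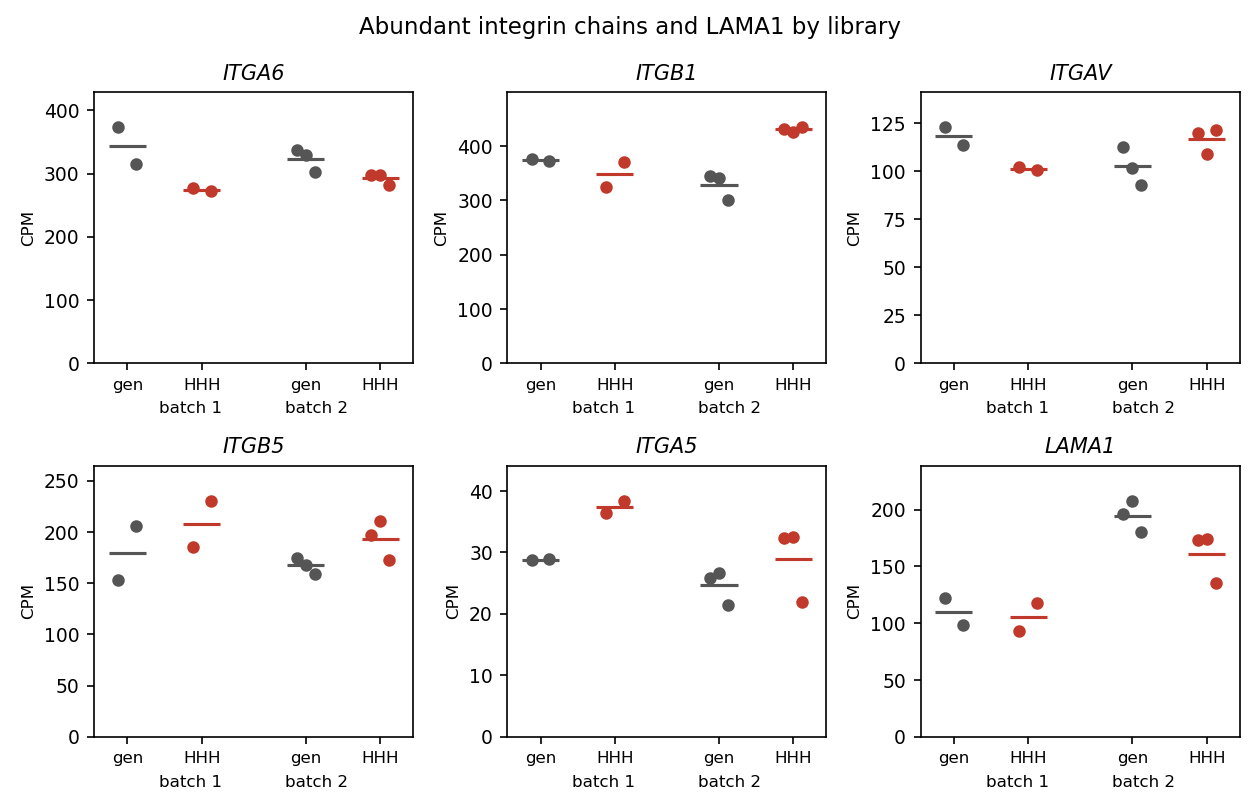
CPM (vertical axes, from 0) in each library for ITGA6, ITGB1, ITGAV, ITGB5, ITGA5 and LAMA1, general in grey and HHH in red, batch 1 left and batch 2 right, with a bar at each mean. ITGA6 was lower in every HHH library, whereas ITGB1 lay below general in batch 1 and above it in batch 2.

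The remaining 7 members were not tested because of low counts. These were ITGA8, ITGA11, ITGAD, ITGAL, ITGAX, ITGB6 and LAMB4, each with at most 16 counts in any library. ITGA8, with 0 counts in all 5 general libraries and at most 2 in HHH, was under the floor in both populations, and ITGAD, ITGAX and LAMB4 did not exceed 4 counts in any library. ITGAD, ITGAL and ITGAX are leukocyte chains.

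Levels of different chains were compared as CPM per kilobase of annotated exons. ITGA6 ranked first, with a mean of 46.2 over the 10 libraries (lowest 40.7, highest 55.9), and did not overlap the next chains. LAMC1 followed at 30.9 (20.7 to 38.3), ITGB5 at 28.5 (23.4 to 35.4) and ITGB1 at 25.6 (20.6 to 29.8), and these 3 overlapped. LAMB2 at 10.5 (7.73 to 12.9), LAMA1 at 9.45 (5.89 to 13.1) and LAMA5 at 6.73 (3.93 to 11.9) also overlapped each other, and ITGAV at 5.67 (4.81 to 6.35) lay within the range of LAMA5. ITGA5 at 3.97 and LAMB1 at 3.16 came next. The order depends on which exons set the length. On the authors' own log2 RPKM values ITGB1 ranked 1 instead of 4 and ITGAV 5 instead of 8, while ITGA6 and LAMC1 ranked 2 and 3. At the low end, 8 tested chains had means from 0.0361 (ITGB2) to 0.102 (ITGB3), among them LAMB3 at 0.0899, LAMA4 at 0.0882 and LAMA3 at 0.0780.

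**Figure D4:**
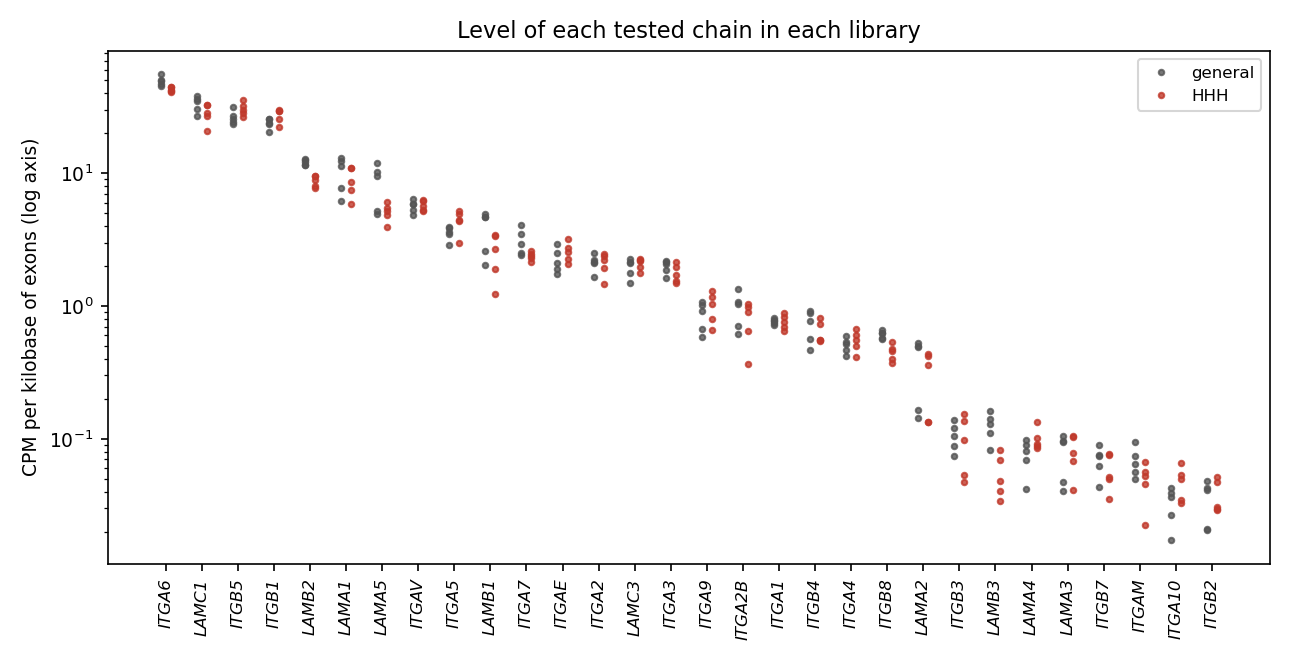
CPM per kilobase of exons (log axis) of the 30 tested chains in each library, general in grey and HHH in red, ordered by mean. ITGA6, LAMC1, ITGB5 and ITGB1 stand at 20.6 or higher in every library, and the lowest 8 chains have means from 0.0361 to 0.102.

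Within each family the chain with the highest mean level per kilobase was the same in general and HHH, although ITGB1 exceeded ITGB5 in 1 library of each population and LAMA5 exceeded LAMA1 in general batch 2 replicate 3. ITGA6 held 69.4 ± 1.59% of the summed integrin alpha level per kilobase in general and 65.9 ± 0.676% in HHH (SD, n = 5 each), with ranges of 67.6 to 71.8% and 65.0 to 66.7% that did not overlap. The share of ITGA5 was 4.99 ± 0.502% in general and 6.77 ± 1.44% in HHH, and that of ITGAV 7.86 ± 0.549% and 8.81 ± 0.659%. On the authors' RPKM values the ITGAV share was 16.5% and 18.3%. Among beta chains, ITGB1 held 46.0 ± 2.89% in general and 46.1 ± 4.28% in HHH, and ITGB5 50.9 ± 2.89% and 51.7 ± 4.27%. On the authors' RPKM values the ITGB1 share was 75.2% and 75.5% in general and HHH, so its size rests on the exon length.

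Of the laminin alpha level, LAMA5 held 43.4 ± 4.32% in general and 36.1 ± 3.44% in HHH, and LAMA1 53.9 ± 4.55% and 60.6 ± 2.77%. By batch, the share of LAMA5 was 41.4% in general and 39.6% in HHH in batch 1, and 44.8% and 33.8% in batch 2. LAMB2 held 76.2 ± 5.74% of the beta level in general and 77.7 ± 5.99% in HHH, with LAMB1 taking nearly all of the rest. On the authors' RPKM values LAMB2 held 61.0% and 63.1%, and LAMB1 38.3% and 36.5%. These shares are descriptions without a test.

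Fitted alone, batch 2 gave 8 members past the test and batch 1 gave 0, in edgeR. In batch 1, 6 members had an unadjusted p under 0.05, a threshold at which no share of all genes was taken. DESeq2 and limma voom each called 0 there, and edgeR called 0.573% of all genes tested at an adjusted p under 0.05. In batch 2, where 13.2% of all genes tested were called, 7 members were lower in HHH (ITGA7, ITGB8, LAMA2, LAMA5, LAMB1, LAMB2 and LAMB3), where 8.05% of all tested genes were called lower, and 1 was higher (ITGB1), where 5.13% were. The batch 2 changes were -0.44 ± 0.14 for ITGA7 (adjusted p = 0.0492) and -0.33 ± 0.10 for LAMA2 (adjusted p = 0.0448). With the GC trend removed, 2815 genes passed in batch 2 in either direction, against 3166 without the removal. Among the members, 5 were then lower and 3 were higher (ITGAE, ITGB1 and ITGB5), and ITGA7 and LAMA2 did not pass. With 1 library of batch 2 left out, LAMA2 did not pass whichever it was, and ITGA7 passed only without general replicate 2. ITGB1 did not pass without general replicate 3, nor LAMB3 without HHH replicate 3. The 3 laminin beta chains differed between the batches by less than the standard error of that difference: -0.57 ± 0.20 and -0.60 ± 0.10 for LAMB1, -0.42 ± 0.13 and -0.52 ± 0.09 for LAMB2, and -0.99 ± 0.37 and -1.38 ± 0.31 for LAMB3 (SE, batch 1 and batch 2). For the interaction of batch and population, 4 members had an unadjusted p under 0.05, again without a share of all genes. The interaction was past the test for 0 members in edgeR, where 0.777% of all tested genes were called at an adjusted p under 0.05. Limma voom called 0 as well, and DESeq2 called 2, ITGB1 and LAMA5. Without HHH batch 1 replicate 2, LAMA5 passed in edgeR too.

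Without any model, 7 of the 31 tested members (22.6%) had every HHH library below every general library within both batches: ITGA6, ITGB8, LAMA2, LAMB1, LAMB2, LAMB3 and LAMC1. The share of all tested genes was 5.42%. No member had every HHH library above in both batches, where the share of all genes was 3.93%.

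**Figure D5:**
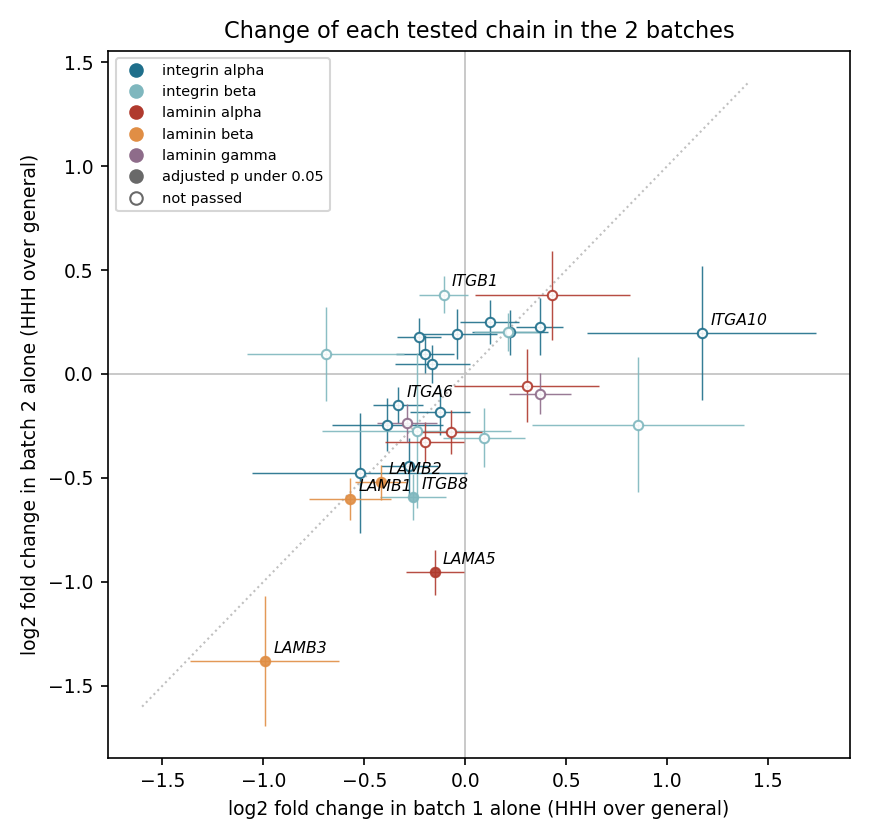
Log2 fold change (HHH over general) of each tested chain in batch 1 alone (horizontal) and batch 2 alone (vertical), coloured by chain family, with bars of 1 standard error, filled points for an adjusted p under 0.05 over both batches, and a dotted line where the batches are equal. LAMB1 and LAMB2 lie close to that line, LAMB3 lies 0.39 below it with wide bars, and LAMA5 (-0.15 and -0.95) and ITGB1 (-0.11 and 0.38) lie on either side of it.

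Several laminin levels also differed between the general libraries of the batches. LAMA2 averaged 4.06 CPM in batch 1 and 13.4 CPM in batch 2, LAMA5 72.3 and 150.7 CPM, LAMB1 43.1 and 88.7 CPM, and LAMA1 110.3 and 195 CPM. By contrast LAMB2 averaged 78.9 and 86.5 CPM, ITGA6 344 and 323 CPM, and ITGB1 374 and 329 CPM. The batches were not tested against each other.

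Transcripts of some of the proteins that build the basement membrane around laminin were lower in HHH as well. Of 22 listed partners, all of them tested, 7 were lower in HHH, where 3.89% of all tested genes were, and the median log2 fold change was -0.29. FRAS1, an extracellular protein that fixes epithelium to its basement membrane, averaged 222 ± 76.8 CPM over the 5 general libraries and 144 ± 31.8 CPM over the 5 HHH libraries (SD), a change of -0.57 in log2 (edgeR adjusted p = 0.00613). BCAM, a cell surface receptor for the laminin alpha 5 chain, averaged 39.1 ± 2.72 and 27.8 ± 4.16 CPM, with -0.50 (edgeR adjusted p = 0.00228). NTN1, a laminin-related guidance molecule, had -0.80 (edgeR adjusted p = 0.00349), and SMOC1, a calcium-binding basement membrane protein, had -1.12 (edgeR adjusted p = 0.00613) at 0.412 to 2.21 CPM. The other 3 that passed were NID2 at -0.58, which links laminin to collagen, and the type IV collagen chains COL4A5 at -0.37 and COL4A6 at -0.50. With the replicate block, which called 4.63% of all tested genes lower, 9 of the list were lower, and the 2 added were HSPG2 (perlecan, adjusted p = 0.0196) and AGRN (agrin, adjusted p = 0.0456). Without the block HSPG2 had -0.49 (adjusted p = 0.116) and AGRN -0.41 (adjusted p = 0.157). Fitted by batch, HSPG2 had 0.02 in batch 1 against -0.83 in batch 2, and AGRN 0.19 against -0.82. No partner passed in batch 1 alone. The more abundant collagen chains COL4A1 and COL4A2 had -0.22 and -0.14 and did not pass, nor did NID1 at -0.06 and DAG1, a laminin receptor outside the integrins, at -0.12.

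Of 25 other integrin ligands, 23 were tested, with a median log2 fold change of -0.18. Of these, 4 were lower in HHH, against 3.89% of all tested genes: MFGE8, a ligand of ITGAV integrins, at -0.54 (edgeR adjusted p = 0.000940), COL1A1 of type I collagen at -0.94 (edgeR adjusted p = 0.00334), COL6A1 at -0.42 (edgeR adjusted p = 0.00901) and THBS1 at -0.48 (edgeR adjusted p = 0.0301). SPP1, osteopontin, was higher at 0.67 (edgeR adjusted p = 0.00662), where 1.94% of all tested genes were called higher. With the replicate block 7 were lower, against 4.63% of all tested genes, and SPP1 was again higher. FN1, fibronectin, had -0.05 at means of 132 CPM in general and 128 CPM in HHH.

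The proteins that join integrins to the cytoskeleton gave 1 call among 33 tested of 34 listed. Over all tested genes 5.83% were called in either direction and 1.94% higher, so this count is near that share. TES, testin, a protein of focal adhesions, averaged 32.4 ± 2.02 CPM over the general libraries and 48.6 ± 5.01 CPM over the HHH libraries (SD, 5 libraries each), a change of 0.58 in log2 (edgeR adjusted p = 0.000510). The median of the list was 0.09. Talin (TLN1) had -0.14, vinculin (VCL) 0.15, integrin-linked kinase (ILK) 0.09, focal adhesion kinase (PTK2) 0.10 and kindlin 2 (FERMT2) -0.04, none past the test.

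Markers of other cell types moved with these groups in part. The calls of each marker list stand against 3.89% of all tested genes called lower and 1.94% called higher. Of 8 neural markers, 5 were tested and 3 were lower in HHH, LHX5 at -5.57, OTX2 at -1.47 and SOX1 at -1.39. The summed neural level was 293 to 408 CPM in the general libraries and 175 to 282 CPM in HHH, and no marker of the list was at 0 in every library. Most of the sum was NES, at means of 222 and 193 CPM (edgeR adjusted p = 0.384), and OTX2, at 109 and 39.1 CPM. In batch 2 alone 5 neural markers were lower, where 8.05% of all tested genes were. Among them were NES at -0.53 (edgeR adjusted p = 0.0194) and SIX3 at -4.17 (edgeR adjusted p = 0.000289, at most 51 counts in any library). NES had 0.22 in batch 1 alone. The study lists OTX2 among post-implantation mouse epiblast markers expressed in both populations. PAX6, SOX1, SIX3, LHX2 and HES5 did not exceed 1.16 CPM in any library. Of 6 fibroblast markers, 3 were tested and COL1A1 alone was lower. The sum was 23.2 to 33.7 CPM in general and 14.8 to 22.6 CPM in HHH, most of it COL1A1, while DCN and LUM did not exceed 4 counts in any library. KRT7, the tested member of 6 trophoblast and amnion markers, was lower at -0.76. The sum of the list was 5.65 to 10.5 CPM in general and 3.46 to 5.53 CPM in HHH, most of it KRT7. Their part in the lower laminin values was not tested. Of 6 markers each for primitive streak and endoderm, 2 each were tested over both batches and did not pass, with sums of at most 3.23 and 4.63 CPM. In batch 2 alone, where 8.05% of all tested genes were called lower, 2 streak markers passed in edgeR. These were TBXT at -1.84 (adjusted p = 0.00269, at most 31 counts in any library) and TBX6 at -0.64 (adjusted p = 0.0293). TBX6 also passed with the replicate block (edgeR adjusted p = 0.0345). The 6 leukocyte and 4 megakaryocyte markers summed to at most 0.600 and 1.22 CPM in any library, and PTPRC, the pan-leukocyte marker, did not exceed 7 counts. All 11 pluripotent stem cell markers were tested. NANOG and EPCAM were higher at 0.44 and 0.41, and SOX2 and PODXL lower at -0.26 and -0.40. EPCAM is a sort antigen, so its call is not independent of how the HHH cells were selected. CD9, another sort antigen, had 0.29 (edgeR adjusted p = 0.195). Fitted by batch, CD9 had -0.10 in batch 1 and 0.54 in batch 2 (edgeR adjusted p = 0.00277 in batch 2). With the replicate block CD9 and TDGF1 were also higher (edgeR adjusted p = 0.0186 and 0.0342), and SOX2 did not pass (0.0773). In batch 2 alone, 5 markers of this list were higher and 2 lower, against 5.13% and 8.05% of all tested genes. POU5F1 averaged 516 CPM in general and 569.8 CPM in HHH and did not pass (edgeR adjusted p = 0.417).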

How the data were processed

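RNA sequencing counts of 10 libraries were analysed. The authors deposited whole fragment counts per Ensembl gene, not normalized, and a second table of log2 TMM-scaled RPKM values, handled as a score because a batch term had been subtracted from it before deposit (batch means equal to within 9.24e-14 over 27641 genes). It served as an alternative and for the order of levels. The submitters' processing notes name CASAVA 1.8.2, R 3.2.2, limma 3.26.9 and GRCh37. The aligner, counter, annotation and use of strand are not given in the sources used here, so reads of overlapping genes may be misassigned.

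Identifiers were matched to GENCODE 44 (GRCh38), 88.5% of all and 94.0% of those tested. Unmatched identifiers held 7.44% to 20.3% of the counts of a library. Total counts ran from 47242595 to 78503395 per library. Genes were kept by filterByExpr with a minimum count of 10, scaled by TMM and compared by a two-sided quasi-likelihood test (edgeR 4.0.16, R 4.3.3) that included batch. Adjusted p-values are by Benjamini and Hochberg over every gene tested. Standard errors were derived from the fold change and its F statistic, and 95% intervals from the t distribution with edgeR's total degrees of freedom. The common biological coefficient of variation was 0.128. Each batch alone and the interaction were fitted likewise. Alternatives used DESeq2 1.42.0, limma 3.58.1, other scalings, filters and thresholds, removal of a GC trend (spline with 5 degrees of freedom), the replicate block and each library left out in turn. The procedure was tested on simulated data.

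Population, batch and replicate were taken from the library titles. Replicate numbers were taken to pair the libraries from batch 2, where deviations of same-numbered libraries from their group means correlated at 0.239, 0.143 and 0.113, against -0.126 to -0.00512 for unlike numbers. Such deviations sum to 0 within a group, so positive values for like numbers force negative ones among unlike numbers. The latter are therefore not separate evidence of pairing, and no label states that the numbers pair libraries. Batch 1, with 2 libraries a group and 1 shared number, cannot show pairing. The members, the lists and the tests were chosen with earlier results of these data known. A further gene that meets the naming rule is not reported here, and its values enter no count of members. Every other tested member is named. Values for each library are given for members past a test and for ITGA6, ITGB1, ITGAV, ITGB5, ITGA5, LAMA5, LAMA1, LAMB1, LAMB2 and LAMC1. From the other lists, the 4 genes with the smallest adjusted p per direction were named among those that passed. Other genes of the lists were named for their role or after their values were seen.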

Additional observations from a re-analysis of the deposited data

Results flagged for a closer look

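ITGB3BP, which matches the spelling of the naming rule but encodes a centromere protein, was at 47.6 CPM in HHH batch 2 replicate 3, while the other 4 HHH libraries ran from 33.2 to 34.7 CPM. The gap to the nearest library was 0.898 of the range of the group, above the 95% critical value of Dixon's test for 5 libraries (0.71). In all, 62 groups were examined in this way, and chance alone gives a gap above that critical value in about 1 group of 20. Without this library the log2 fold change of ITGB3BP was 0.03 (adjusted p = 0.832).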

How the results depend on the processing

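The 5 members past the test were LAMA5, LAMB1, LAMB2, LAMB3 and ITGB8 under RLE scaling, upper quartile scaling, limma voom, the deposited log2 values, the replicate block, and with small RNAs and mitochondrial genes left out. DESeq2 gave 7, adding ITGA7 and LAMA2 (of 1983 genes in all). With no filter there were 7, adding ITGA5, higher, and ITGA7 (of 2423). Library size alone gave 6, adding ITGA6 (of 1065). Removal of the GC trend gave 6, adding ITGA5 (of 1810), and with the replicate block as well 7, adding ITGAE, higher, too (of 2527). A filter of 1 CPM in 5 libraries gave 4, without LAMB3 (of 1182). Some settings moved the counts by over 1.5 times, and the cause was not tested. Without the batch term 1 member passed (LAMB2), and 0 at over 1.5-fold, where edgeR called 151 genes in all. At an adjusted p under 0.01, 3 passed, 1 at over 1.5-fold, and 4 in batch 2 alone. At over 1.5-fold, 5 members passed on the deposited values, whose median over all genes was -0.12, and 1 after removal of the GC trend. With no filter on low counts, batch 1 alone gave 2 (LAMB1 and LAMB2, of 1060 genes in all) and the interaction 2 (ITGB1 and LAMA5, of 1173), as did DESeq2 for the interaction (of 838). With each library left out in turn, the counts ran from 3 (without HHH batch 2 replicate 1) to 7, from 1 (without HHH or general batch 2 replicate 3) to 3 at over 1.5-fold, from 0 to 1 in batch 1 alone, from 5 (without general batch 2 replicate 3) to 7 in batch 2 alone, and from 0 to 1 for the interaction.

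With the replicate block the same 5 members passed, and their log2 fold changes were -0.81 for LAMA5 (adjusted p = 0.00351), -0.63 for LAMB1, -0.53 for LAMB2, -1.19 for LAMB3 and -0.51 for ITGB8. In batch 2 alone 9 passed with the replicate block, LAMA1 being the one added, and 3733 of all genes did. In this fit over both batches, the libraries general batch 1 replicate 1 and HHH batch 1 replicate 3, which share no number, do not inform the comparison. The block could not be fitted in batch 1 alone, where 1 number is shared, and the filter of 1 CPM in 5 libraries could not be met by its 4 libraries.

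None of the 5 members past the test changed direction. Of 707 values of single members under the alternatives, 22 had the opposite sign, in 8 members with reported sizes up to 0.14 and with adjusted p of 0.791 or more. With the replicate block these were ITGA1 0.021, ITGA2 0.0035, ITGB2 -0.12 and LAMC3 -0.036. With the GC trend alone removed ITGAV had -0.016, and with library size only -0.012. On the deposited values ITGA4 had -0.031, ITGAV -0.11, ITGB3BP -0.0057, LAMA3 -0.066 and LAMC3 -0.045. With libraries left out in turn, ITGA1 ran from -0.062 to 0.032, ITGA2 from -0.075 to 0.051, ITGB2 from -0.063 to 0.27, LAMA3 from -0.058 to 0.17 and ITGAV from -0.040 to 0.079.

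The depth limits the members with few counts. ITGA10, ITGAM, ITGB2, ITGB7 and LAMB3 had at most 49 counts in any library.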
